A study of Homo sapiens with 36 samples.

Results

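The genes described here are 41 named genes of hypoxia signalling and glycolysis, followed across 36 RNA sequencing libraries of prostate cancer cells. They were taken by gene symbol from the gene count table, in which 61805 entries carry a gene ID, and every one of the 41 was found. By role they are 5 genes of oxygen sensing, 11 hypoxia targets, 3 transporters of glucose or monocarboxylates, 14 glycolytic enzymes, 3 regulators of glycolysis and glycogen breakdown, and 5 genes that set the fate of pyruvate. The 12 groups of 3 libraries come from 6 lines, each given the synthetic androgen R1881 at 5 nM for 6 h or the solvent DMSO, after 3 days in charcoal-stripped serum that is low in hormone. LNCaP is an androgen-responsive line from a lymph node metastasis and was present as the lines sgT33-5, sgT33-5_MC_C2 (here C2), sgT33-5_MC_F2 (F2) and NT3. 42D descends from LNCaP, is resistant to the drug enzalutamide, and was present as sgT33-5 and NT3. These names are not spelled out in the labels. Judging by the series title, sgT33-5 is taken here for a guide against TRIM33, a chromatin-bound ubiquitin ligase, and NT3 for its non-targeting control. The series asks whether loss of TRIM33 changes transcription driven by androgen. Each line is 1 cultured population, and the labels do not say whether replicates were separate cultures, so p-values measure the spread between these samples.

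In cells with enough oxygen, prolyl hydroxylases mark the HIF alpha subunits for destruction. When oxygen is short, the subunits persist, pair with ARNT and switch on genes for glucose uptake, glycolysis, acid export and vessel growth. HIF1A is controlled mainly at the protein level, which RNA does not show. Glycolysis turns glucose into pyruvate, and the pyruvate dehydrogenase kinases and lactate dehydrogenase decide whether pyruvate enters mitochondria or leaves as lactate. Normal prostate epithelium makes and secretes citrate, and androgens are known to influence its glucose use.

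Library totals were 13900744 to 19793268 counts, and the 41 genes together held 1.01% to 1.10% of them in 42D and 0.98% to 1.16% in LNCaP. Levels are given in CPM, counts scaled to a library total set by the trimmed mean of M values (TMM), and changes as log2 with the standard error (SE) in brackets, for 3 libraries against 3. A gene rose or fell where the edgeR adjusted p was under 0.05. The luminal markers KRT8, KRT18 and EPCAM were high in every library (EPCAM 180.0 to 204 CPM in 42D and 100.0 to 118 CPM in LNCaP), while CD3E, COL1A2, PECAM1 and CDH5 were at or near 0. In bulk RNA, fewer cells of a type and less RNA per cell cannot be told apart. Genes of the mitochondrial chromosome took 2.14% and 2.40% of counts in 2 LNCaP sgT33-5 libraries (DMSO replicate 3 and R1881 replicate 1), the lowest shares among the LNCaP libraries. TRIM33 was at 34.3 to 66 CPM in the 18 LNCaP libraries with the guide, against 88.6 to 128 CPM in the 6 NT3 libraries. In 42D it was at 54.5 to 74.2 CPM with the guide, against 79.2 to 108 CPM in NT3.

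Per kilobase of exon, the 41 genes spanned a wide range. GAPDH, the glycolytic dehydrogenase, was highest at 785 to 1194 CPM per kb over the 36 libraries. TPI1 (254 to 371) and ENO1 (237 to 355) came next, with overlapping ranges, followed by PGK1 at 88.2 to 165, PKM at 108 to 148 and LDHA at 91.0 to 125 CPM per kb. HIF1A lay at 27.3 to 50.8, VEGFA at 3.91 to 11 and EGLN3 at 0.911 to 10.7 CPM per kb. ADM, a vasoactive peptide gene that hypoxia induces in many tissues, was lowest at 0 to 0.239 CPM per kb and passed no expression filter. The filter kept 38 of the 41 in LNCaP, leaving out ADM, CA9 and PDK4, and 39 in 42D, leaving out ADM and SLC16A3. ALDOA and LDHB share 93.8% and 93.5% of their coding length with another annotated entry on the same strand, so reads may be split or dropped between the entries. Their counts (107 to 262 and 107 to 201 per library) are uncertain for that reason; they stay in the counts of members tested and called, and their levels are not described. The handling of shared reads is not given in the sources used here.

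The 300 bases around the annotated start (250 before and 50 after, RefSeq, GRCh38.p14) were read for 38 of the 41 genes, all but SLC2A3, VEGFA and BNIP3L. The core of the hypoxia response element, ACGTG or GCGTG on either strand, was present in 25 of the 38 (65.8%), against 48.4% of all 35116 promoters in the same table. Members count 1 promoter per gene, while the background counts every promoter and is not matched for GC content or expression. The members also include genes listed as hypoxia targets, and the difference was not tested. The full androgen response element, searched as an exact inverted repeat of AGAACA with a spacer of any 3 bases, was in 0 of 38 and in 1 of all promoters, and AGAACA alone in 5 of 38 (13.2%), against 14.8% of all. Windows of 3 genes are shown, 5′ to 3′ on the gene's strand, because their RNA behaved differently with R1881: EGLN3 fell in every line, HK2 rose in 42D and LDHA passed the test in no line. Capitals mark the hypoxia cores, which can overlap (CACGTG is a core on both strands). EGLN3 is at chr14:33951025-33951324 on the minus strand, HK2 at chr2:74833877-74834176 and LDHA at chr11:18394313-18394612, both on the plus strand.
EGLN3: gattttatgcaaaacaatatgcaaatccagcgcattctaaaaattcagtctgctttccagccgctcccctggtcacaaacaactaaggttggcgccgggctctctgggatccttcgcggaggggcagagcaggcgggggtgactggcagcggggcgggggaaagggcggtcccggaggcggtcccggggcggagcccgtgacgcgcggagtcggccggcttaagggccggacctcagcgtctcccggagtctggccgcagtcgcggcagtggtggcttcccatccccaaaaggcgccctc
HK2: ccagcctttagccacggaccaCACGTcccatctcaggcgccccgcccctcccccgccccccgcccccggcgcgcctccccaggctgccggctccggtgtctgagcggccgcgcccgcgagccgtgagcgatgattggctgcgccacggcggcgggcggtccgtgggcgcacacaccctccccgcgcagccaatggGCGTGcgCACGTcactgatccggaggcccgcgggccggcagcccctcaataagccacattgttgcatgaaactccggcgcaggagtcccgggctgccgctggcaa
LDHA: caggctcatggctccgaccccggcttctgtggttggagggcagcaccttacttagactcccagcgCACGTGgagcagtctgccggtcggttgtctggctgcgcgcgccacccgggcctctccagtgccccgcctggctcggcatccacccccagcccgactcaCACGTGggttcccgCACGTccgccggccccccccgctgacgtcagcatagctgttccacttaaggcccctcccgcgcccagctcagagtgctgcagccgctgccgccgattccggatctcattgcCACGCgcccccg
The EGLN3 window held none of these cores. That of HK2 held 3, which began at -229, -55 and -48 relative to the start, and that of LDHA held 6. A match is a sequence description, not evidence of binding, and no match says only that these letters are not in this window.

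**Figure D1:**
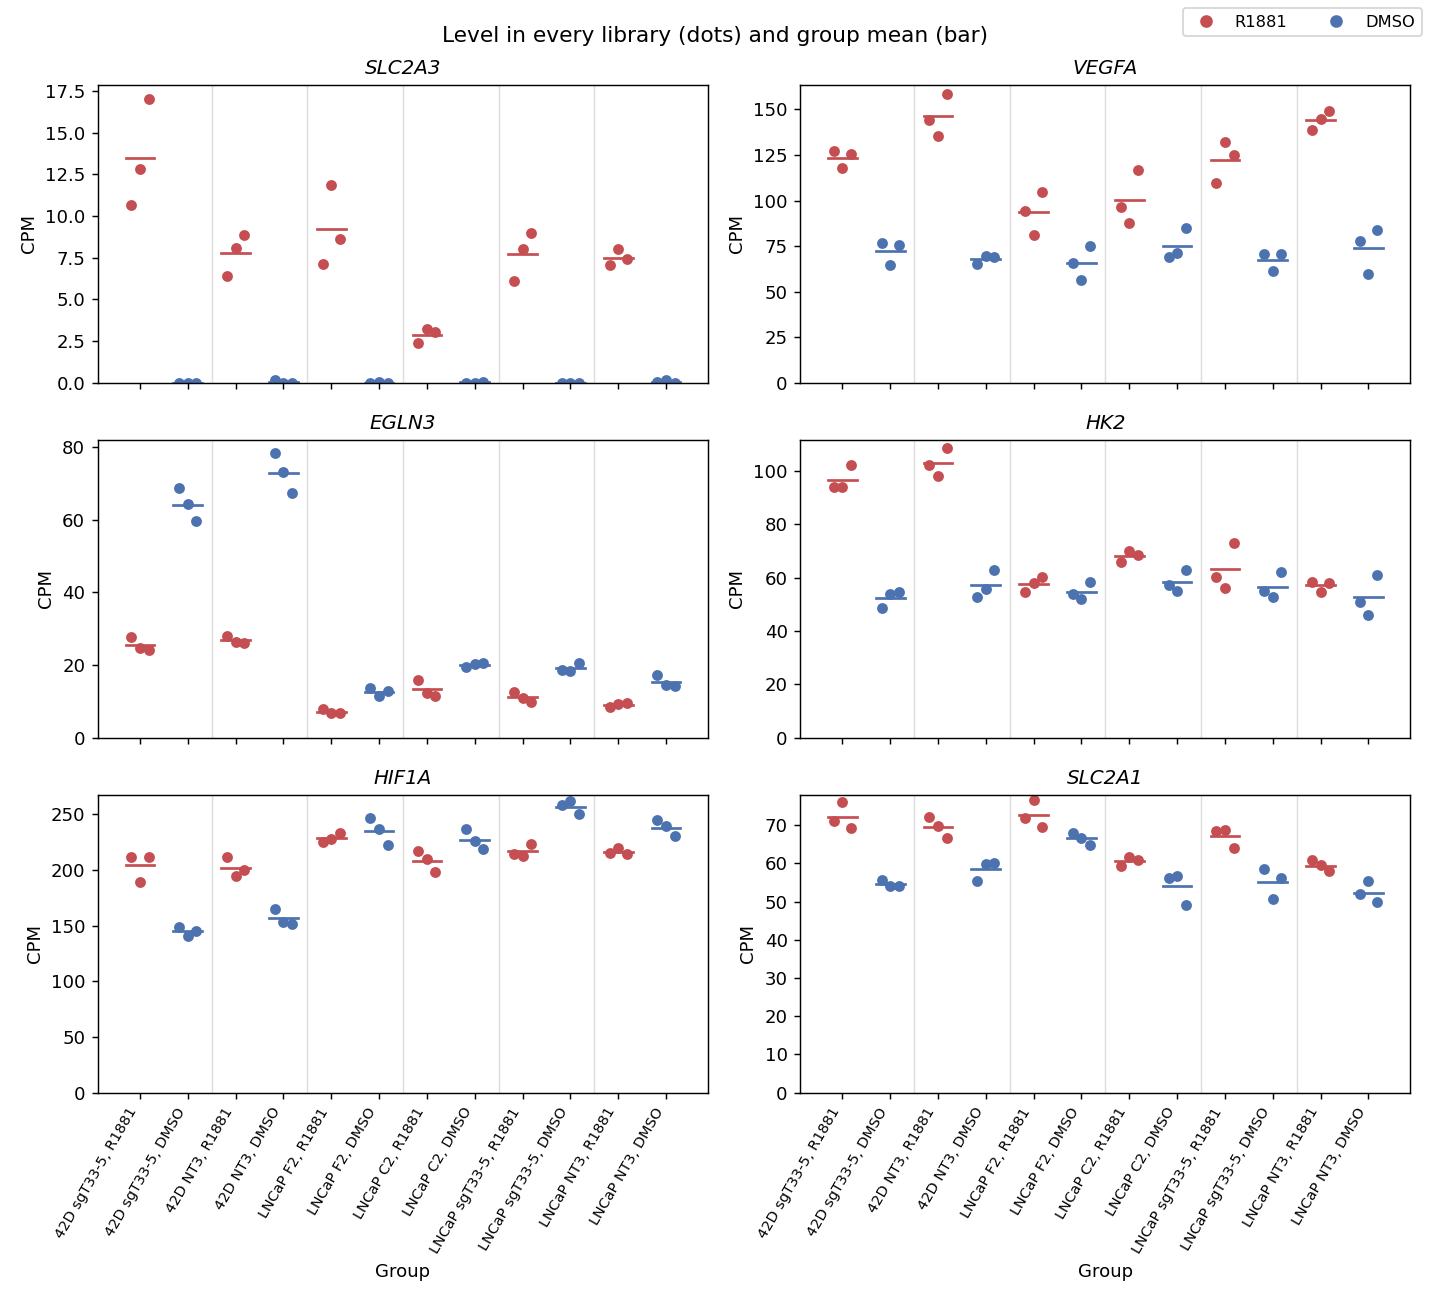
Level of the genes the results turn on in each of the 36 libraries, in CPM on the vertical axes, with 1 point per library. Lines run left to right from 42D sgT33-5 to LNCaP NT3, R1881 left of DMSO within each. SLC2A3 is near 0 in every DMSO library, and EGLN3 is lower with R1881 in every line.

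R1881 against DMSO moved a minority of the genes, in both directions. In NT3 cells, 8 of 38 members were called in LNCaP (4 higher and 4 lower, against 13.2% of all genes tested) and 12 of 39 in 42D (7 higher and 5 lower, against 25.3%). Lines with the guide had 13 of 39 in 42D sgT33-5 (27.3% of all genes), 3 of 38 in F2 (10.4%), 2 in C2 (5.66%) and 9 in LNCaP sgT33-5 (12.5%). The share of members called was near that of all genes in C2, F2 and both 42D lines and above it in LNCaP NT3 and sgT33-5, a difference for which no test was made. Their median change, -0.04 in LNCaP NT3 and -0.03 in 42D NT3, lay near the all-gene medians of -0.01 and -0.00. Over the 6 lines, 19 of the 41 genes were called at least once, and HIF1A was the only one called in both directions. Only SLC2A3 and EGLN3 were called in all 6, and SLC2A3 entered these tests through its R1881 libraries alone. Of the 22 never called, 19 were tested in every line. These counts come from the fit without a replicate block. With replicate numbers as a block, VEGFA was called in every line as well. Of the genes never called without it, EGLN1 and PDK3 then passed in LNCaP NT3 and P4HA2 and GAPDH in 42D NT3. SLC16A3 passed in LNCaP NT3, C2 and LNCaP sgT33-5.

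**Figure D2:**
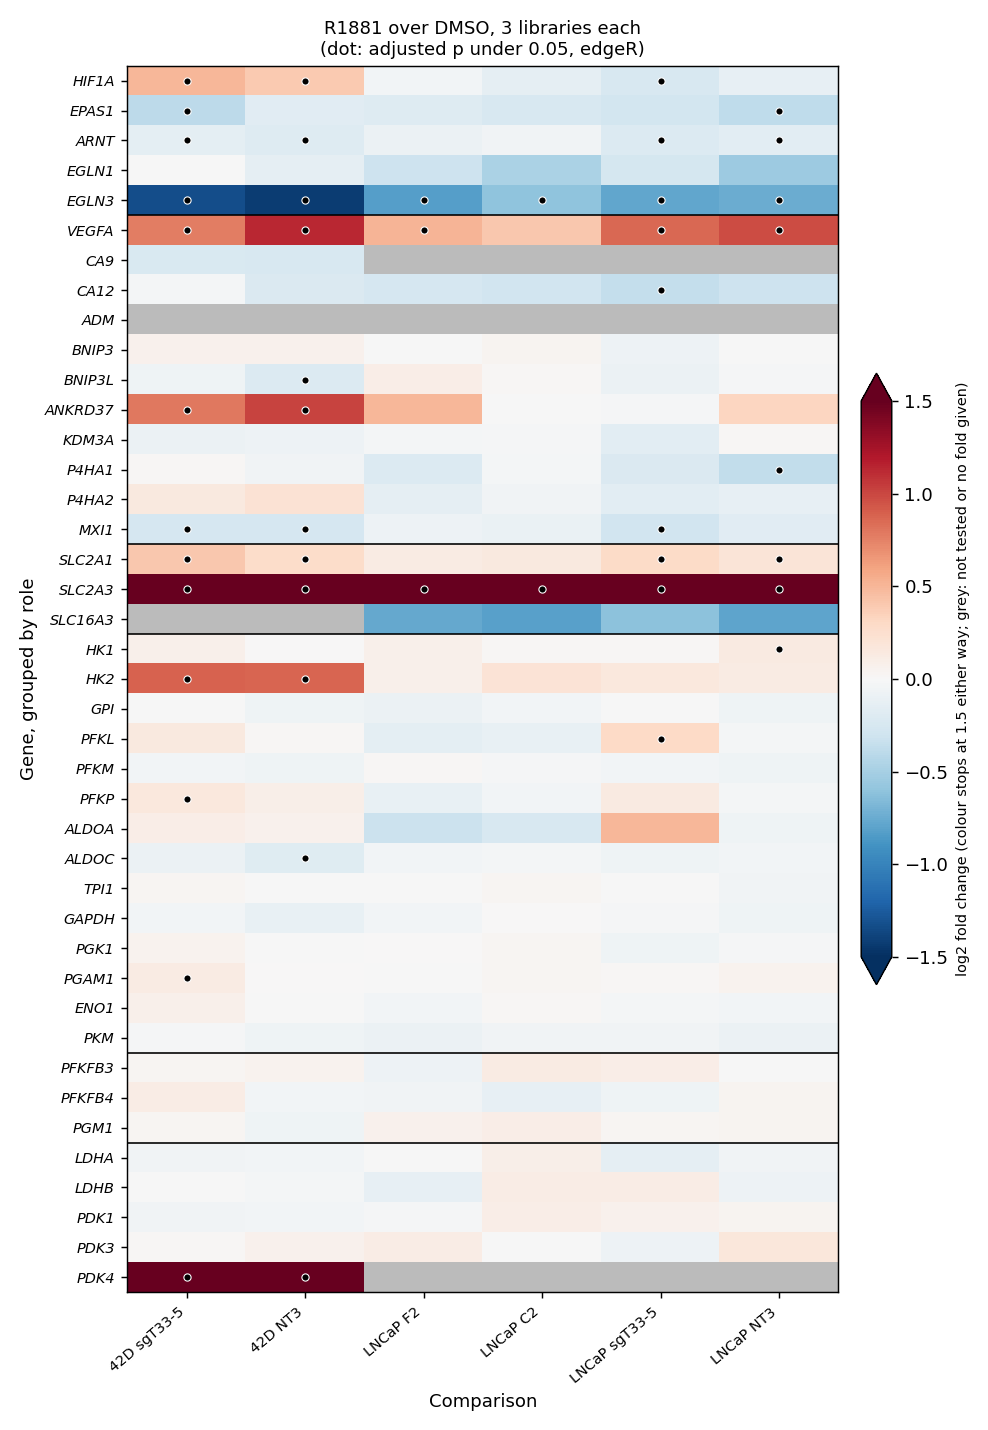
Log2 change with R1881 over DMSO (colour, stopping at 1.5 in either direction) for each gene (down the page, by role) in each of the 6 lines (across). Dots mark an edgeR adjusted p under 0.05 and grey marks genes not tested; SLC2A3 and EGLN3 carry a dot in all 6 lines.

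Among the oxygen sensing genes, EGLN3 (ENSG00000129521, chromosome 14, 33924227 to 34462774), a prolyl hydroxylase that marks HIF alpha and is itself a hypoxia target, fell in every line. In 42D NT3 it was at 27.9, 26.4 and 26 CPM with R1881, against 78.4, 73.1 and 67.2 CPM with DMSO. LNCaP NT3 had 8.38, 9.41 and 9.53 CPM with R1881, against 17.4, 14.4 and 14.3 CPM with DMSO. All R1881 libraries lay below all DMSO libraries in both. The log2 changes were -1.42 (0.072) in 42D NT3 (adjusted p 8e-13) and -0.74 (0.120) in LNCaP NT3 (adjusted p 4.2e-05). With the guide they were -1.33 in 42D, -0.83 in F2, -0.61 in C2 and -0.77 in LNCaP sgT33-5, and each of these 6 calls held with any 1 library left out.

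HIF1A (ENSG00000100644, chromosome 14, 61695513 to 61748259), the alpha subunit of the hypoxia factor, rose in both 42D lines and fell in LNCaP sgT33-5. That was the only LNCaP line in which it passed without a replicate block. In 42D NT3 its RNA was at 211, 195 and 199.6 CPM with R1881, against 165, 154 and 152 CPM with DMSO. In 42D sgT33-5 it was at 212, 189 and 212 CPM with R1881, against 149, 141 and 145 CPM with DMSO. The groups did not overlap in either line, and the rises were 0.39 (0.050) in NT3 (adjusted p 2.8e-06) and 0.50 (0.050) in sgT33-5 (adjusted p 7e-08). In LNCaP sgT33-5 it was at 214, 212 and 223 CPM with R1881, against 258, 261 and 250.2 CPM with DMSO, a fall of 0.24 (0.048, adjusted p 0.00085). In LNCaP NT3 it was at 215, 219 and 214 CPM with R1881, against 245, 239 and 230.0 CPM with DMSO. Those groups did not overlap either, but the change of -0.13 (0.048) did not pass (adjusted p 0.09). C2 and F2 were at -0.14 and -0.04, also short of the threshold. With replicate numbers as a block, HIF1A passed in LNCaP NT3 (-0.13, adjusted p 0.025) and in C2 (-0.14, adjusted p 0.021).

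ARNT, the partner subunit, fell in 4 of 6 lines by small amounts. It was at 91.5, 90.5 and 90.1 CPM with R1881 in 42D NT3, against 103, 102 and 111 CPM with DMSO (log2 -0.19, SE 0.043, adjusted p 0.0018). The other calls were -0.14 in 42D sgT33-5, -0.20 in LNCaP sgT33-5 and -0.16 in LNCaP NT3, and all 6 estimates were below 0. EPAS1, another HIF alpha subunit, was at 17.7, 14.9 and 13.1 CPM with R1881 in LNCaP NT3, against 18.9, 21.9 and 19.2 CPM with DMSO. The groups lay apart and the fall was 0.38 (0.122, adjusted p 0.039). It also fell by 0.39 (0.136, adjusted p 0.035) in 42D sgT33-5. The main oxygen sensor EGLN1 was called in no line, with estimates of -0.54 to -0.00. It passed in LNCaP NT3 with the replicate number as a block (-0.54, adjusted p 0.049). In LNCaP NT3 the call of EPAS1 ended with each library left out in turn, except R1881 replicate 1 (-0.41 to -0.29), and that of ARNT without DMSO replicate 1 or 2 or R1881 replicate 2 or 3 (-0.15 to -0.12). In 42D sgT33-5 the call of EPAS1 ended without DMSO replicate 1 or 2 or R1881 replicate 3 (-0.38 to -0.24), and that of ARNT without DMSO replicate 2 (-0.13). With all libraries, the ARNT call also ended without a filter on low counts in both lines (-0.17 in LNCaP NT3 and -0.13 in 42D sgT33-5), with only the libraries compared in LNCaP NT3 and with DESeq2 in 42D sgT33-5. That of EPAS1 in 42D sgT33-5 ended with DESeq2 (adjusted p 0.080) and with only the libraries compared (adjusted p 0.059).

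Of the hypoxia targets, VEGFA (ENSG00000112715, chromosome 6, 43770184 to 43786487), the main growth factor of blood vessels, rose with R1881 in 5 of 6 lines. It was at 144, 136 and 158 CPM with R1881 in 42D NT3, against 65.4, 69.5 and 68.9 CPM with DMSO. In LNCaP NT3 it was at 139, 145 and 149 CPM with R1881, against 77.7, 59.8 and 83.8 CPM with DMSO. Every R1881 library lay well above every DMSO library, at log2 1.13 (0.064, adjusted p 2.1e-11) in 42D NT3 and 0.98 (0.129, adjusted p 1.1e-05) in LNCaP NT3. In F2 it was at 94.4, 81.3 and 105 CPM with R1881, against 65.9, 56.4 and 74.9 CPM with DMSO, a rise of 0.50 (0.129, adjusted p 0.013). That call ended without F2 DMSO replicate 2 (0.41) or F2 R1881 replicate 3 (0.42), and without a filter on low counts (0.51, adjusted p 0.0502). In C2 it was at 96.6, 87.8 and 117 CPM with R1881, against 69, 71.5 and 84.7 CPM with DMSO. Those groups did not overlap, but 0.41 (0.128) did not pass (adjusted p 0.075). With the replicate number as a block, VEGFA passed in C2 as well (0.40, adjusted p 0.0084). VEGFA and EGLN3, both known hypoxia targets, moved in opposite directions with R1881, and the cause was not tested.

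Of the other hypoxia targets, ANKRD37, MXI1, P4HA1, CA12 and BNIP3L were called in at least 1 line, none of them in more than 3. ANKRD37, an ankyrin repeat gene used as a hypoxia marker, was at 4.12, 3.25 and 2.93 CPM with R1881 in 42D NT3, against 2.14, 2.01 and 0.998 CPM with DMSO. It rose by 1.02 (0.228, adjusted p 0.0018) there and by 0.79 (0.221, adjusted p 0.0093) in 42D sgT33-5. The call in sgT33-5 ended without R1881 replicate 1 (0.68), and 35.2% of its exon length is shared with entries on the opposite strand. MXI1, an antagonist of MYC, was at 55.3, 54.8 and 57.6 CPM with R1881 in 42D NT3, against 71.2, 66.3 and 64.9 CPM with DMSO. It fell by 0.25 in both 42D lines and by 0.28 in LNCaP sgT33-5, and its groups did not overlap in any of the 3. MXI1 also passed in LNCaP NT3 with the replicate number as a block (-0.17, adjusted p 0.011).

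P4HA1, a collagen prolyl hydroxylase, was at 44.8, 48.5 and 45.2 CPM with R1881 in LNCaP NT3, against 60.5, 66.9 and 52.2 CPM with DMSO, and fell by 0.36 (0.104, adjusted p 0.018). The acid-handling carbonic anhydrase CA12 fell by 0.36 (0.111, adjusted p 0.033) in LNCaP sgT33-5. BNIP3L, a mitophagy receptor, fell by 0.21 (0.068, adjusted p 0.035) in 42D NT3. Each of these 3 calls ended in 4 of the 6 fits with 1 library left out. For P4HA1 these were without LNCaP NT3 DMSO replicate 1 or 2 or R1881 replicate 1 or 3 (-0.36 to -0.27), and for CA12 without LNCaP sgT33-5 DMSO replicate 1 or 2 or R1881 replicate 2 or 3 (-0.37 to -0.28). For BNIP3L they were without 42D NT3 DMSO replicate 1 or 2 or R1881 replicate 2 or 3 (-0.22 to -0.17). BNIP3, the histone demethylase KDM3A and the collagen hydroxylase P4HA2 were called in no line, with estimates of -0.08 to 0.07, -0.16 to 0.02 and -0.16 to 0.22. With replicate numbers as a block, P4HA2 passed in 42D NT3 (0.21) and CA12 in F2 (-0.26), where they pair the libraries. CA12 also passed with the block in C2 (-0.28) and LNCaP NT3 (-0.30). CA9, a carbonic anhydrase often used as a hypoxia marker, was tested in 42D only and was not called (-0.24 and -0.23).

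The largest relative change among the 41 genes was in the RNA of a glucose transporter. SLC2A3 (ENSG00000059804, chromosome 12, 7919230 to 7936187) encodes the high-affinity glucose transporter GLUT3. In 42D sgT33-5 it was at 10.7, 12.8 and 17 CPM with R1881, against 0, 0 and 0 CPM with DMSO. In 42D NT3 it was at 6.38, 8.11 and 8.84 CPM with R1881, against 0.179, 0 and 0 CPM with DMSO. In LNCaP NT3 it was at 7.04, 8.04 and 7.43 CPM with R1881, against 0.0588, 0.143 and 0 CPM with DMSO. SLC2A3 RNA was thus almost confined to the R1881 libraries in these lines.

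In LNCaP with the guide, SLC2A3 was at 7.14, 11.9 and 8.63 CPM with R1881 in F2, against 0, 0.0545 and 0 CPM with DMSO. In C2 it was at 2.36, 3.25 and 3.03 CPM with R1881, against 0, 0 and 0.0604 CPM with DMSO. In sgT33-5 it was at 6.08, 8.04 and 8.99 CPM with R1881, against 0, 0 and 0 CPM with DMSO. No R1881 library overlapped the DMSO libraries of its line. Summed counts were 378 with R1881 against 3 with DMSO in 42D NT3, a ratio of 123 (95% exact interval 41.8 to 599.7). They were 347 against 3 in LNCaP NT3, a ratio of 116 (39.4 to 566). Against a floor of 3 counts over the group, the level was at least 223-fold higher in 42D sgT33-5 (639 against 0 counts) and at least 124-fold higher in LNCaP sgT33-5 (366 against 0). The 1 DMSO count in C2 (160 against 1) and in F2 (473 against 1) leaves wide intervals, 26.3 to 5916 and 88.6 to 19636. Intervals and floors cover counting error only. The edgeR adjusted p lay between 1.9e-12 and 2e-07 in the 6 lines, and each call held with any 1 library left out. SLC2A3 passed the expression filter through its R1881 libraries alone, so these p-values add no separate support to the counts. Its close paralog SLC2A14 had 0 or 1 count per library.

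SLC2A1, the widely used transporter GLUT1, moved far less. It was at 71, 76 and 69.4 CPM with R1881 in 42D sgT33-5, against 55.6, 54.2 and 54.2 CPM with DMSO. LNCaP NT3 had 60.9, 59.6 and 57.9 CPM with R1881, against 51.9, 55.4 and 49.9 CPM with DMSO. The groups did not overlap in either, and the rises were 0.40 (0.052, adjusted p 2.5e-06) and 0.20 (0.064, adjusted p 0.042). It also rose by 0.27 in 42D NT3 and 0.29 in LNCaP sgT33-5, while F2 and C2 were at 0.13 and 0.15, short of the threshold. The LNCaP NT3 call ended with DESeq2, without a filter on low counts, with only the libraries compared in the fit, and with each library left out in turn, except DMSO replicate 2 (0.16 to 0.21). Per kilobase, SLC2A3 made up 8.83% ± 0.620 of the summed CPM of both transporters with R1881 in LNCaP NT3, against 0.0949% ± 0.0991 with DMSO (SD, n = 3). In 42D sgT33-5 its share was 12.5% ± 2.90 with R1881, against 0 with DMSO. GLUT1 RNA remained the larger share in every group. SLC16A3, the lactate exporter MCT4, was at 1.78, 1.57 and 1.18 CPM with R1881 in LNCaP NT3, against 3.24, 2.79 and 1.87 CPM with DMSO. The change did not pass (-0.79, SE 0.313, adjusted p 0.11). With replicate numbers as a block, SLC16A3 passed in LNCaP NT3 (-0.79, adjusted p 0.013), C2 (-0.80) and LNCaP sgT33-5 (-0.62).

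HK2 (ENSG00000159399, chromosome 2, 74834127 to 74893359), the inducible hexokinase that traps glucose in the cell and whose promoter is printed above, rose in 42D. It was at 102, 98.1 and 109 CPM with R1881 in 42D NT3, against 52.8, 55.7 and 62.7 CPM with DMSO. In 42D sgT33-5 it was at 93.9, 93.9 and 102 CPM with R1881, against 48.6, 53.7 and 54.8 CPM with DMSO. All R1881 libraries lay above all DMSO libraries, at 0.88 (0.062, adjusted p 2.4e-10) in NT3 and 0.88 (0.062, adjusted p 2.1e-10) in sgT33-5. In LNCaP NT3 it was at 58.4, 54.7 and 58.1 CPM with R1881, against 51, 46.1 and 61.1 CPM with DMSO, and these groups overlapped. The LNCaP estimates were 0.07 in F2, 0.21 in C2, 0.16 in sgT33-5 and 0.12 in NT3, and none passed. That of C2 passed with the replicate number as a block (0.21, adjusted p 0.019). As a share of the summed CPM per kb of HK2 and the constitutive hexokinase HK1, HK2 was at 38.7% ± 1.20 with R1881 in 42D NT3, against 25.7% ± 2.01 with DMSO (SD, n = 3). In LNCaP NT3 the share was 24.2% ± 0.752 with R1881, against 24.4% ± 2.59 with DMSO.

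The remaining glycolytic enzymes changed little with R1881. None of GAPDH (-0.11 to 0.00 over the 6 lines), TPI1 (-0.05 to 0.02), PGK1 (-0.06 to 0.06), ENO1 (-0.04 to 0.07), PKM (-0.09 to -0.02), GPI (-0.08 to -0.01) or PFKM (-0.07 to 0.02) was called. These are the abundant genes of the pathway, so counts do not limit them as they do SLC2A3. GAPDH was at 2516, 2339 and 2370.1 CPM with R1881 in 42D NT3, against 2692, 2640.1 and 2587 CPM with DMSO. Those groups did not overlap, and the change of -0.11 did not pass. With replicate numbers, which pair these libraries, as a block, GAPDH passed (-0.11, adjusted p 0.0025).

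The other enzyme calls were small. HK1 rose by 0.14 (0.041, adjusted p 0.019) in LNCaP NT3, and the liver-type phosphofructokinase PFKL rose by 0.30 (0.083, adjusted p 0.015) in LNCaP sgT33-5. The platelet-type phosphofructokinase PFKP rose by 0.16 (0.050, adjusted p 0.024) and the mutase PGAM1 by 0.12 (0.040, adjusted p 0.023) in 42D sgT33-5, and the aldolase ALDOC fell by 0.18 (0.060, adjusted p 0.031) in 42D NT3. Each of these 5 calls ended in 3 to 5 of the 6 fits with 1 library left out, with estimates of the same sign. That of HK1 ended without LNCaP NT3 DMSO replicate 2 or 3 or R1881 replicate 1 (0.13 to 0.14), and that of PFKL without LNCaP sgT33-5 DMSO replicate 2 or 3 or R1881 replicate 1 or 2 (0.26 to 0.29). Those of PFKP (0.13 to 0.16) and PGAM1 (0.11 to 0.13) ended without 42D sgT33-5 R1881 replicate 1 or 2 or DMSO replicate 2, and also without DMSO replicate 3 for PFKP and 1 for PGAM1. That of ALDOC ended with each library left out in turn, except 42D NT3 R1881 replicate 1 (-0.19 to -0.16). With all libraries, HK1 also fell short without a filter on low counts and with only the libraries compared, and ALDOC with DESeq2. PFKL fell short without the pair of libraries of low mitochondrial share (0.28).

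Of the regulators, none of the 3 was called with R1881. PFKFB3 and PFKFB4, which make the activator of phosphofructokinase, had estimates of -0.08 to 0.12 and -0.12 to 0.11, and the glycogen-linked mutase PGM1 -0.07 to 0.10. Among the genes of pyruvate fate, PDK4 (ENSG00000004799, chromosome 7, 95583499 to 95596516), a kinase that shuts pyruvate dehydrogenase in fasting, rose in 42D, where its level was low. It was at 2.26, 2.19 and 2.13 CPM with R1881 in 42D NT3, against 0.476, 0.694 and 0.312 CPM with DMSO. In 42D sgT33-5 it was at 2.12, 0.878 and 2.04 CPM with R1881, against 0.305, 0.475 and 0.24 CPM with DMSO. The groups lay apart in both lines, with 1 R1881 library of sgT33-5 well below the other two. Summed counts were 106 against 23 in NT3, a ratio of 4.50 (95% exact interval 2.85 to 7.41), and 80 against 17 in sgT33-5, a ratio of 4.93 (2.89 to 8.87). The edgeR adjusted p were 3.7e-05 and 8.5e-05, and neither call ended with any 1 library left out. PDK4 passed the expression filter only because of its R1881 libraries, so these p-values add no separate support to the counts. In LNCaP, PDK4 lay between 0 and 0.109 CPM and was not tested. LDHA, which makes lactate, was called in no line (-0.13 to 0.09), nor were PDK1 (-0.05 to 0.10) and PDK3 (-0.07 to 0.17). PDK3 passed in LNCaP NT3 with the replicate number as a block (0.17, adjusted p 0.039).

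The mitochondrial share of counts moved with R1881 in 42D, at 3.76% to 4.39% with R1881 in NT3, against 2.94% to 3.32% with DMSO. In 42D sgT33-5 it moved the other way, at 3.41% to 3.79% with R1881, against 4.16% to 4.59% with DMSO. Its part in the R1881 changes was not tested.

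Other genes of these pathways were read from further lists in NT3 cells, beside which 25.3% of all genes were called in 42D and 13.2% in LNCaP. Those named are among the called genes with the largest change in their list. In 42D, 3 of 9 further genes of oxygen sensing rose, led by the hydroxylase EGLN2 (0.72, SE 0.180) and CITED2 (0.60, SE 0.080), which competes with HIF for a coactivator. Of 18 further hypoxia targets tested in 42D, 6 rose and 3 fell, and the same counts held in LNCaP. NDRG1, a stress and androgen responsive gene, rose by 4.26 (0.101) in 42D and 2.12 (0.195) in LNCaP. INSIG2, a brake on sterol synthesis, fell by 1.47 (0.103) in 42D and 0.43 (0.075) in LNCaP. Of 18 further glycolysis and sugar genes, 5 rose and 0 fell in either cell line, led in LNCaP by the glucose transporter SLC2A12 (1.69, SE 0.135) and the phosphopentomutase PGM2 (0.61). In 42D the bifunctional enzyme PFKFB2 rose by 0.75 (0.059) and SLC2A12 by 0.49. Among 23 genes of pyruvate dehydrogenase and the citrate cycle, 3 rose and 1 fell in either. The mitochondrial pyruvate carrier subunit MPC2 rose by 1.07 (0.054) in 42D and 0.55 (0.057) in LNCaP, and the phosphatase PDP1, which activates pyruvate dehydrogenase, fell by 0.54 in 42D and 0.36 in LNCaP.

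The response itself was then compared between cell lines, as the change in 42D NT3 minus the change in LNCaP NT3, in 1 fit of all libraries. It differed for 3 of 40 members (3.85% of all genes). These were HIF1A at 0.49 (0.070, adjusted p 7.2e-06), HK2 at 0.72 (0.121, adjusted p 0.00011) and EGLN3 at -0.70 (0.144, adjusted p 0.0015). HIF1A and HK2 thus had the higher change in 42D, and EGLN3 the deeper fall. The 3 calls held in every alternative run. For VEGFA, SLC2A1 and the other members no such difference was called. Of the further genes, the difference was 2.11 (0.249) for NDRG1, -1.07 (0.122) for INSIG2 and -1.23 for SLC2A12.

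Lines with the TRIM33 guide were compared with NT3 at the same treatment. Each is 1 cultured population, and the labels do not say how C2 and F2 were made. An effect of the guide therefore cannot be told apart from other differences between a line and NT3. These comparisons share their NT3 libraries within a cell line, so values of the lines are given side by side and no overlap between them is drawn. In 42D, 0 of 39 members were called in sgT33-5 with DMSO (1.13% of all genes) and 0 with R1881 (0.513%). At an unadjusted p under 0.05 edgeR gave 3 and 5 members, and DESeq2 called 0 and 1. Replicate numbers pair the libraries in the R1881 comparison, and with them as a block 3 members were called: SLC2A3 at 0.78 (adjusted p 7.1e-05), VEGFA at -0.25 (adjusted p 0.00052) and PDK3 at -0.15. SLC2A3 was at 10.7, 12.8 and 17 CPM in sgT33-5 with R1881, against 6.38, 8.11 and 8.84 CPM in NT3, and those groups did not overlap. Without the block, its change of 0.78 (0.190) had an adjusted p of 0.15.

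In LNCaP sgT33-5, 0 of 38 members were called with DMSO (1.40% of all genes; 5 at an unadjusted p under 0.05 with edgeR, and 0 with DESeq2) and 1 with R1881 (3.04%). The called gene was PDK3, a pyruvate dehydrogenase kinase. It was at 92.1, 95.5 and 108 CPM in sgT33-5 with R1881, against 121, 109 and 119 CPM in NT3, at -0.25 (0.062, adjusted p 0.024). The groups lay just apart, and the call ended without NT3 replicate 1 or 3 or sgT33-5 replicate 1 or 2 (-0.23 to -0.20), which include a library of low mitochondrial share. It also ended with only the libraries compared (-0.24) and without both libraries of low mitochondrial share (-0.20). Replicate numbers pair the libraries here as well, and the block gave 2 calls, adding ARNT at -0.14 (adjusted p 0.046).

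**Figure D3:**
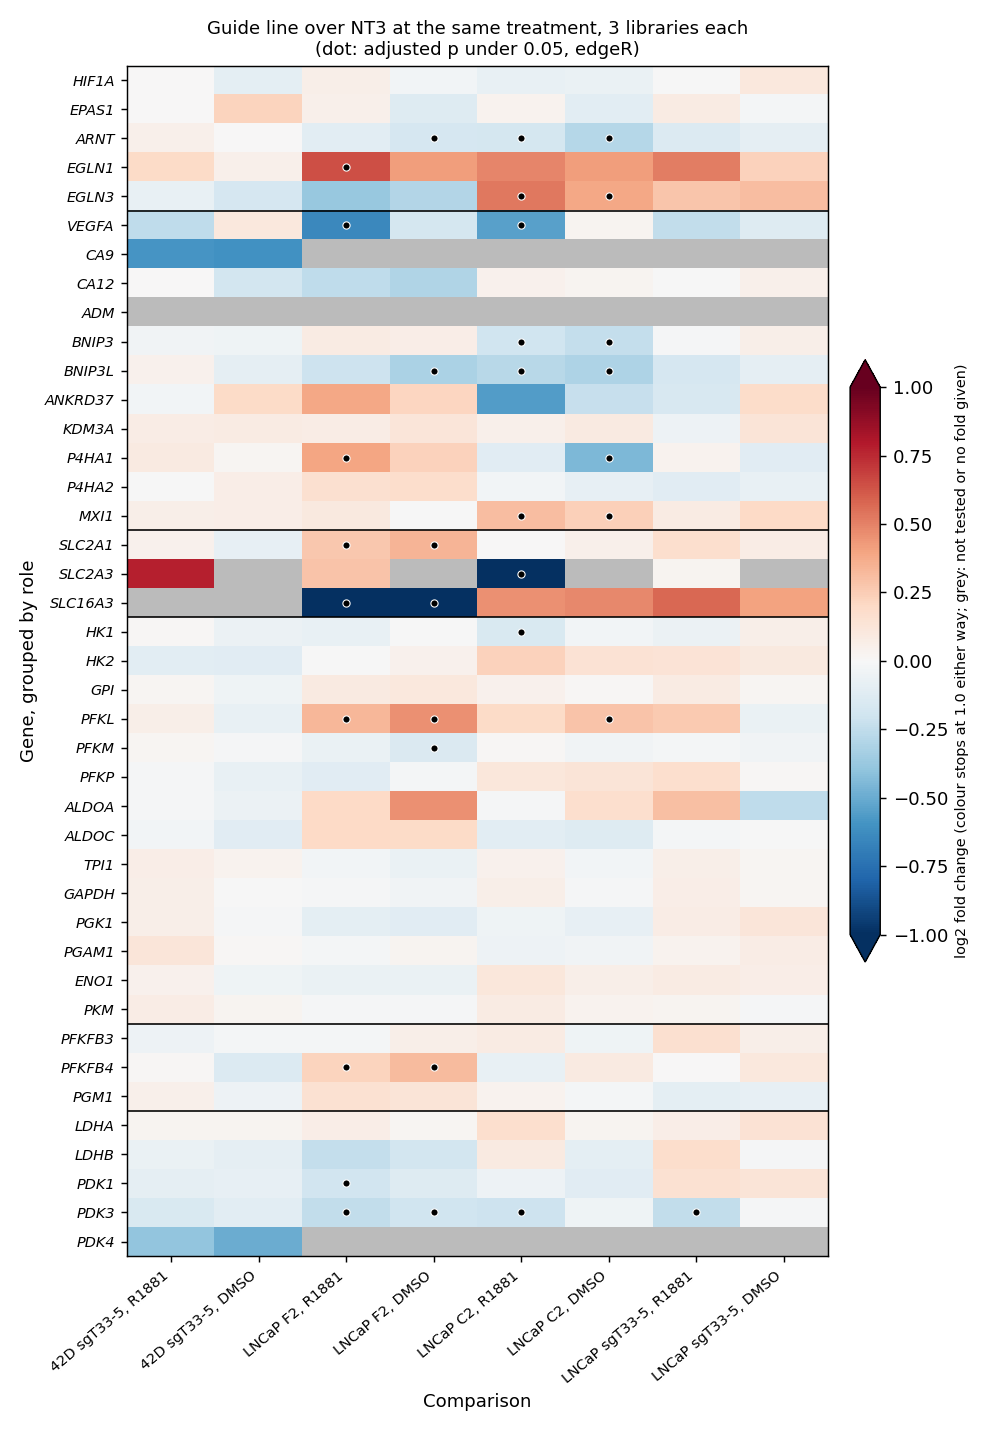
Log2 change of each guide line over NT3 (colour, stopping at 1.0 in either direction) with R1881 and with DMSO, for each gene (down the page, by role). Dots mark an edgeR adjusted p under 0.05; the dots sit in the C2 and F2 columns apart from PDK3 in LNCaP sgT33-5 with R1881, and grey marks genes not tested or with too few counts for a fold.

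In C2, 9 of 38 members were called with R1881 (2 higher and 7 lower, against 23.0% of all genes) and 7 with DMSO (3 higher and 4 lower, against 18.2%). The median member change was 0.02 with R1881 and -0.03 with DMSO, against 0.00 over all genes at either treatment. EGLN3 was higher, at 16, 12.4 and 11.6 CPM in C2 with R1881, against 8.38, 9.41 and 9.53 CPM in NT3 (0.53, SE 0.120, adjusted p 0.0019). With DMSO it was at 19.5, 20.2 and 20.6 CPM in C2, against 17.4, 14.4 and 14.3 CPM in NT3 (0.39, SE 0.109, adjusted p 0.013). C2 exceeded NT3 in every library at both treatments. ARNT was lower, by 0.17 with R1881 and by 0.28 (0.046, adjusted p 7.9e-05) with DMSO. The EGLN3 call with DMSO ended without NT3 DMSO replicate 2 or 3 (0.33 to 0.34), and that of ARNT with R1881 without NT3 R1881 replicate 1 (-0.13) or without a filter on low counts (-0.15). In F2, EGLN3 was not called, but edgeR with the replicate number as a block put it below NT3. The changes were -0.38 (adjusted p 0.022) with R1881 and -0.29 (adjusted p 0.030) with DMSO. The difference between C2 and F2 was not tested.

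VEGFA reached lower levels with R1881 in both C2 and F2. In F2 it was at 94.4, 81.3 and 105 CPM with R1881, and in C2 at 96.6, 87.8 and 117 CPM, against 139, 145 and 149 CPM in NT3. No library of either line reached the NT3 range, at -0.65 (0.127, adjusted p 0.0015) in F2 and -0.55 (0.126, adjusted p 0.0034) in C2. With DMSO the levels overlapped those of NT3 and VEGFA was called in neither line. A test of the difference in response gave -0.47 (0.182, adjusted p 1) for F2 and -0.57 (0.181, adjusted p 0.27) for C2, neither past the threshold. In 42D the same difference was -0.36 (0.090, adjusted p 0.14). With the replicate number as a block, VEGFA passed in C2 (-0.58, adjusted p 0.026) and in 42D sgT33-5 (-0.36, adjusted p 0.0047). Correlations between libraries of the same number had medians of 0.17 and 0.14 in these comparisons. The lowest, 0.023 and 0.073, fell short of the 0.1 asked of every pair. Without the block, the test of the response called 0 members over all guide lines: 1 of 39 passed an unadjusted p under 0.05 in 42D, and 1, 3 and 4 of 38 did in F2, C2 and LNCaP sgT33-5. DESeq2 also called 0 in each, and of all genes edgeR called 0.123%, 0%, 0.689% and 0%.

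SLC2A3 with R1881 was lower in C2 than in NT3, at 2.36, 3.25 and 3.03 CPM in C2, against 7.04, 8.04 and 7.43 CPM in NT3. The groups were far apart and the change was -1.41 (0.205, adjusted p 1.5e-05), held with any 1 library left out. In F2 it was at 7.14, 11.9 and 8.63 CPM, which overlapped NT3 (0.28, SE 0.179, adjusted p 0.34). With DMSO no fold was formed, since all groups had 3 counts or fewer. SLC2A1 was higher in F2, at 71.9, 76.6 and 69.4 CPM with R1881, against 60.9, 59.6 and 57.9 CPM in NT3, and at 68.1, 66.8 and 64.8 CPM with DMSO, against 51.9, 55.4 and 49.9 CPM in NT3. The rises were 0.27 (0.063, adjusted p 0.0042) and 0.34 (0.063, adjusted p 0.00045), with no overlap. SLC16A3 was lower in F2 with DMSO, at 1.16, 1.58 and 0.704 CPM, against 3.24, 2.79 and 1.87 CPM in NT3 (-1.21, SE 0.321, adjusted p 0.01). That call ended without NT3 DMSO replicate 1 (-1.02) or F2 DMSO replicate 3 (-0.94). With R1881 its change in F2 was -1.19 (0.400, adjusted p 0.049), and that call ended with each library left out in turn, except F2 R1881 replicate 1 (-1.32 to -0.85), and with only the libraries compared.

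In F2, 9 of 38 members were called with R1881 (5 higher and 4 lower, against 13.4% of all genes) and 8 with DMSO (3 higher and 5 lower, against 16.7%). With replicate numbers, which pair the libraries in the DMSO comparison, as a block, 14 were called with DMSO. PFKL was higher, at 153, 152 and 149 CPM in F2 with DMSO, against 112, 113 and 105 CPM in NT3 (0.46, SE 0.082, adjusted p 0.00039). With R1881 it was at 148, 149 and 114 CPM in F2, against 102, 116 and 104 CPM in NT3, where the lowest F2 library fell within the NT3 range. That rise of 0.34 (0.083, adjusted p 0.0076) ended without F2 R1881 replicate 2 (0.27) or with only the libraries compared (0.34). PFKFB4 was at 26, 25.2 and 22.9 CPM in F2 with DMSO, against 18.4, 20.3 and 20.5 CPM in NT3 (0.32, SE 0.072, adjusted p 0.0029). PDK3 was lower in F2, by 0.25 (0.061, adjusted p 0.0075) with R1881 and by 0.20 (0.062, adjusted p 0.029) with DMSO. The PDK3 calls ended without F2 R1881 replicate 1 or NT3 R1881 replicate 1 (-0.21 to -0.20), and without F2 DMSO replicate 3 or NT3 DMSO replicate 1 or 3 (-0.20 to -0.15). That with R1881 also ended with only the libraries compared (-0.24).

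P4HA1 was called in F2 with R1881 and in C2 with DMSO. It was at 56.3, 64.6 and 63.6 CPM in F2 with R1881, against 44.8, 48.5 and 45.2 CPM in NT3, a rise of 0.39 (0.103, adjusted p 0.012). It was at 38.5, 44.7 and 48.1 CPM in C2 with DMSO, against 60.5, 66.9 and 52.2 CPM in NT3, a fall of 0.45 (0.103, adjusted p 0.0036). Neither pair of groups overlapped, and the F2 call ended without NT3 R1881 replicate 1 or F2 R1881 replicate 2 (0.35 to 0.38). At the other treatment P4HA1 was not called, at 0.23 (adjusted p 0.12) in F2 with DMSO and -0.11 (adjusted p 0.47) in C2 with R1881, and the difference between the lines was not tested. MXI1 was higher in C2, at 82.2, 88.8 and 85.5 CPM with R1881, against 67.5, 72.8 and 63.9 CPM in NT3 (0.31, SE 0.060, adjusted p 0.00044). BNIP3 was at 101, 97.3 and 102 CPM in C2 with DMSO, against 121, 123 and 112 CPM in NT3, a fall of 0.24 (0.057, adjusted p 0.0037).

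The other calls in C2 were less firm. BNIP3L was lower by 0.28 with R1881 and 0.31 with DMSO, BNIP3 by 0.20, HK1 by 0.15 and PDK3 by 0.21 with R1881. With DMSO, MXI1 was higher by 0.24 and PFKL by 0.28. With R1881, the calls ended without NT3 replicate 1 or 2 or C2 replicate 1 or 3 for BNIP3L (-0.28 to -0.20), without NT3 replicate 1 or 2 or C2 replicate 2 or 3 for BNIP3 (-0.18), without C2 replicate 3 for HK1 (-0.12), and without NT3 or C2 replicate 1 or 3 for PDK3 (-0.20 to -0.15). With DMSO, they ended without NT3 replicate 1 or 2 or C2 replicate 1 or 3 for BNIP3L (-0.30 to -0.24), without NT3 replicate 3 or C2 replicate 2 for MXI1 (0.17 to 0.20), and without NT3 replicate 1 or 3 or C2 replicate 1 or 2 for PFKL (0.24 to 0.28). HK1 also fell short without a filter on low counts.

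The same held for the other calls in F2. EGLN1 was at 3.88, 2.99 and 2.48 CPM in F2 with R1881, against 1.97, 2.03 and 1.91 CPM in NT3, a rise of 0.64 (0.180, adjusted p 0.017). PFKFB4 was higher by 0.23 and PDK1 lower by 0.19 with R1881, and ARNT (-0.17), BNIP3L (-0.32) and PFKM (-0.15) were lower with DMSO. With R1881, the calls ended without NT3 replicate 1 or 3 or F2 replicate 1 for EGLN1 (0.47 to 0.65), without NT3 replicate 1 or 3 or F2 replicate 1 or 2 for PFKFB4 (0.21 to 0.25), and with each library left out in turn, except NT3 replicate 2, for PDK1 (-0.19 to -0.15). With DMSO, they ended without NT3 replicate 2 or F2 replicate 3 for ARNT (-0.16 to -0.15), without NT3 replicate 1 or 2 or F2 replicate 3 for BNIP3L (-0.30 to -0.23), and without NT3 replicate 2 or F2 replicate 1 or 3 for PFKM (-0.15 to -0.12). With only the libraries compared, EGLN1, PFKFB4, PDK1, BNIP3L and PFKM also fell short, as did PFKFB4, PDK1, ARNT and PFKM without a filter on low counts, and PFKFB4 and PDK1 with DESeq2. The block added EGLN3 (-0.29), CA12 (-0.30), P4HA1 (0.23), ALDOC (0.20), PGK1 (-0.12) and PGM1 (0.13) with DMSO.

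With DMSO, the mitochondrial share of counts lay lower in these lines too, at 5.14% to 5.67% in F2 and 4.66% to 5.53% in C2, against 5.70% to 6.66% in NT3. Its part in these differences was not tested. Of the 18 further hypoxia targets, 3 were higher and 6 lower in C2 with R1881 (23.0% of all genes called) and 2 and 4 with DMSO (18.2%). In F2 they were 3 and 3 with R1881 (13.4%) and 4 and 2 with DMSO (16.7%). The monocarboxylate transporter SLC16A7 was lower in C2 (-3.19 with R1881 and -2.97, SE 0.231, with DMSO). NDRG1 was lower in C2 with R1881 (-2.31, SE 0.195). MPC2 was lower with DMSO in F2 (-0.45) and C2 (-0.60), and LOX, a collagen crosslinking enzyme, was lower in F2 with DMSO (-1.55).

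42D NT3 cells differed from LNCaP NT3 cells with DMSO in 30 of 40 members, 13 higher and 17 lower, against 68.1% of all genes. These 30 include CA9 and PDK4, which did not pass the expression filter in LNCaP, and SLC16A3, which did not pass it in 42D. Each entered this fit through the cell line where it is higher, so its call adds no separate support to its counts. The median member change was -0.07, against 0.00 over all genes. Oxygen sensing had 1 gene higher and 3 lower of 5. EGLN3 was at 78.4, 73.1 and 67.2 CPM in 42D, against 17.4, 14.4 and 14.3 CPM in LNCaP (2.25, SE 0.094, adjusted p 7.1e-22). HIF1A was at 165, 154 and 152 CPM in 42D, against 245, 239 and 230.0 CPM in LNCaP (-0.60, SE 0.049, adjusted p 3.1e-13). EPAS1 was at 8.16, 8.4 and 8.55 CPM in 42D, against 18.9, 21.9 and 19.2 CPM in LNCaP (-1.25, SE 0.132, adjusted p 1.5e-10). The 3 differences showed no overlap between libraries, so the 42D cells had more RNA of the hydroxylase and less of both HIF alpha subunits.

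**Figure D4:**
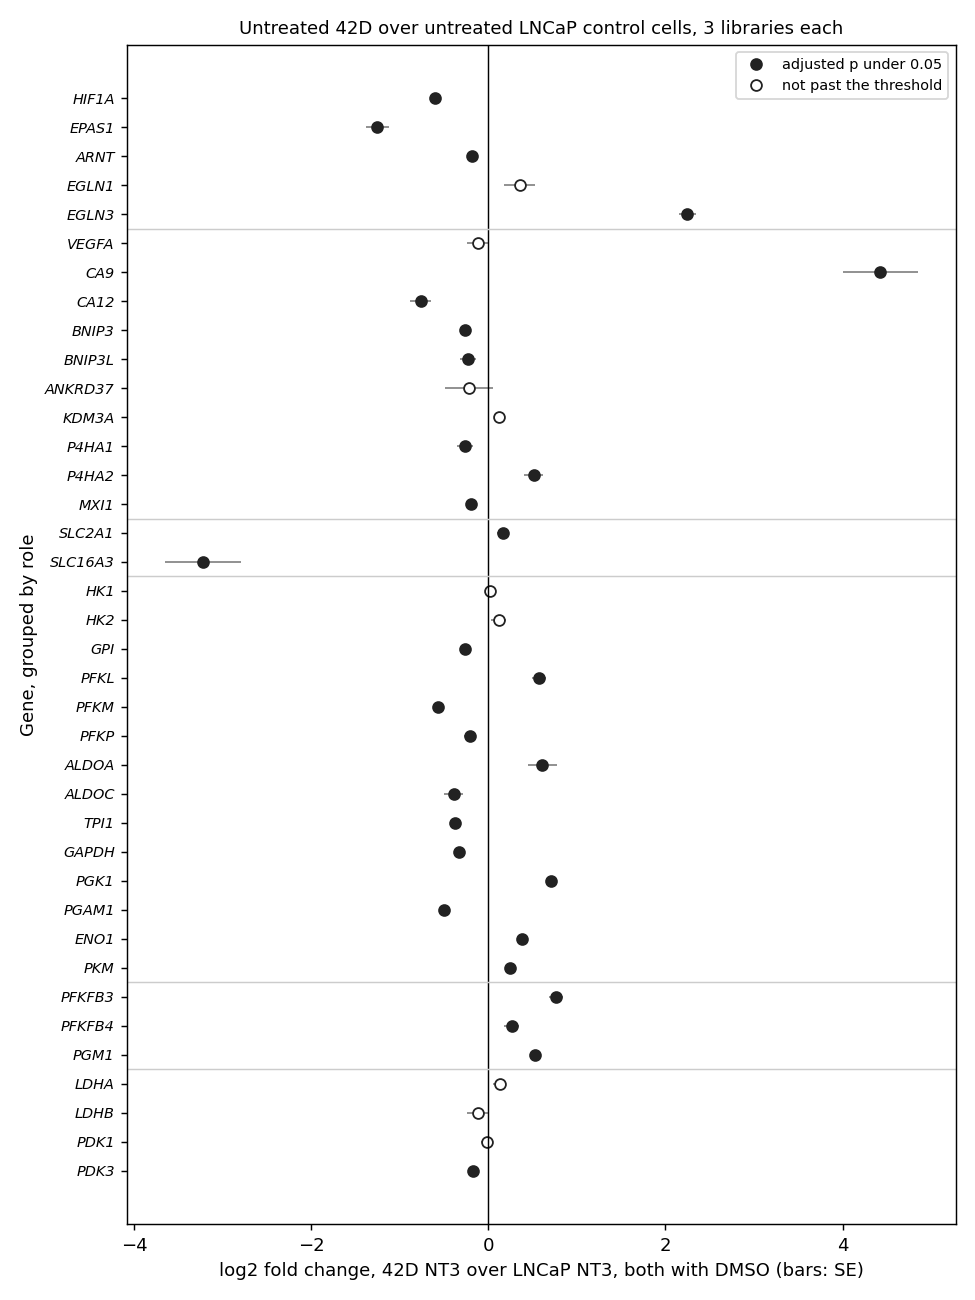
Log2 change of 42D NT3 over LNCaP NT3 with DMSO (horizontal axis) for each gene by role, as a point with its SE bar. Filled points have an edgeR adjusted p under 0.05. EGLN3 at 2.25 and CA9 at 4.43 stand to the right and SLC16A3 at -3.22 to the left. CA9 and SLC16A3 passed the expression filter only through the cell line where each is higher.

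Of the 10 hypoxia targets tested, 2 were higher and 5 lower in 42D. CA9 was at 2.02, 2.91 and 2.5 CPM in 42D, against 0.118, 0 and 0.194 CPM in LNCaP. With 116 against 5 counts the ratio was 22.8 (95% exact interval 9.50 to 71.6), although 38.5% of its exon length is shared with an entry on the opposite strand. P4HA2 was higher by 0.51 (0.104, adjusted p 5e-05) and CA12 lower by 0.76 (0.118, adjusted p 6.3e-07), while VEGFA was not called (-0.12, SE 0.120). The lactate exporter SLC16A3 was at 0.298, 0.278 and 0.25 CPM in 42D, against 3.24, 2.79 and 1.87 CPM in LNCaP. With 13 against 123 counts the ratio was 0.104 (0.0538 to 0.184). PDK4 had 23 counts in 42D and 0 in LNCaP, at least 7.54-fold higher against the floor of 3 counts over the group.

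Among the 14 glycolytic enzymes, 5 were higher and 7 lower in 42D, so called changes went in both directions. The 5 higher include ALDOA (0.61, SE 0.162), whose counts are uncertain as described above, and it is also among the 13 members higher in all. PGK1, an ATP-forming kinase of the pathway, was at 874, 911 and 846 CPM in 42D, against 538, 544 and 537 CPM in LNCaP (0.70, SE 0.042, adjusted p 3.5e-17). PFKL was higher by 0.57 (0.081) and ENO1 by 0.38 (0.049). GAPDH was at 2692, 2640.1 and 2587 CPM in 42D, against 3481, 3383 and 3130.1 CPM in LNCaP (-0.33, SE 0.050). PGAM1 (-0.51, SE 0.050), TPI1 (-0.38, SE 0.046) and PFKM (-0.57, SE 0.042) were also lower. Phosphofructokinase thus differed by isoform, with more of the liver type and less of the muscle type. All 3 regulators were higher. PFKFB3 was at 39.2, 40.6 and 45.9 CPM in 42D, against 23.8, 24.2 and 26.2 CPM in LNCaP (0.76, SE 0.080, adjusted p 1.4e-10). PGM1 was at 97.3, 97.3 and 97.1 CPM in 42D, against 68.6, 66.6 and 66.8 CPM in LNCaP (0.53, SE 0.049), and PFKFB4 was higher by 0.26 (0.079).

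Smaller differences were called for ARNT (-0.18), BNIP3 (-0.27), BNIP3L (-0.23), P4HA1 (-0.26), MXI1 (-0.19), GPI (-0.27), PFKP (-0.21), ALDOC (-0.39) and PDK3 (-0.17), all lower in 42D, and for SLC2A1 (0.16) and PKM (0.24), both higher. With DMSO libraries of NT3 left out singly, the calls of P4HA1 (-0.17) and MXI1 (-0.13) ended without LNCaP replicate 2, of PDK3 (-0.15) without LNCaP replicate 3 and of PFKFB4 (0.14) without 42D replicate 1. That of BNIP3L ended without LNCaP replicate 1 or 2 or 42D replicate 2 or 3 (-0.23 to -0.15), and that of SLC2A1 without LNCaP replicate 1 or 3 or 42D replicate 2 or 3 (0.13 to 0.15), and without a filter on low counts. HK1, HK2, LDHA and PDK1 were not called, at 0.02, 0.12, 0.13 and -0.02. The mitochondrial share was 2.94% to 3.32% in 42D NT3 with DMSO, against 5.70% to 6.66% in LNCaP NT3, and its part in these differences was not tested. Of the further genes, CITED2 was higher by 1.54, the pyruvate carrier subunit MPC1 by 1.04 and BHLHE40 by 1.46, while MPC2 was lower (-1.73). By list, where 68.1% of all genes were called, 4 of 9 were higher and 3 lower in oxygen sensing, 7 and 8 of 18 in hypoxia targets, 9 and 4 of 18 in glycolysis and sugar genes, and 8 and 10 of 23 in pyruvate dehydrogenase and the citrate cycle.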

How the data were processed

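RNA of 36 libraries was sequenced from a stranded polyA kit in 51 bp pairs, per the labels' protocols. Reads were trimmed with cutadapt and aligned to hg38 with HISAT2 2.1.0, per the submitters' processing notes; the counting tool, its strand setting and the annotation are not given in the sources used here. The authors deposited raw counts per gene, used here as deposited, and the 1 entry without a gene ID holds 0 counts. Replicates of a group differed beyond counting error (chi-square per gene 2.73 to 26.6 in 36 pairs), so none was merged.

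The test was edgeR's 2-sided quasi-likelihood F test with robust dispersions (version 4.0.16, R 4.3.3), after TMM scaling and filterByExpr by group, in separate fits of the 24 LNCaP libraries (15519 genes), the 12 libraries of 42D (15403) and all 36 (16564). P-values were adjusted by Benjamini-Hochberg over all genes of a fit, with a threshold of 0.05, in 20 comparisons. The SE is the log2 change divided by the square root of F. CPM use TMM-adjusted totals over 36 libraries, and exon lengths and overlaps come from GENCODE 29. Code was tested on simulated counts first. The members and lists were chosen with earlier results of these data known. Any member may be named, and of the further lists the 2 called genes with the largest change in each direction per comparison. Alternatives were RLE size factors, DESeq2 1.42.0, no filter on low counts, only the libraries compared, the replicate number as a block, each library left out, and the 2 libraries of low mitochondrial share left out.

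The pairing of libraries by replicate number was checked ahead of any blocked fit. The best correlation of a library was with its own number in 12 of 12 libraries of 42D and 24 of 24 of LNCaP, at a median of 0.155 for the same number against -0.0763 for other numbers in LNCaP, and 0.139 against -0.0875 in 42D. All pairs passed 0.1 for R1881 in F2 and in both 42D lines. They also did for F2 against NT3 with DMSO, and for sgT33-5 against NT3 with R1881 in both cell lines. Libraries are said to pair by number only there. Elsewhere at least 1 pair fell short, as for R1881 in LNCaP NT3 (lowest 0.093, median 0.26). The labels do not say what a number marks.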

Additional observations from a re-analysis of the deposited data

Results flagged for a closer look

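In 3 genes the R1881 response differed between the cell lines by a test of the difference itself, 42D NT3 minus LNCaP NT3, with edgeR and adjustment over all genes. HIF1A differed by 0.49 (SE 0.070, adjusted p 7.2e-06), with R1881 above DMSO in all 42D NT3 libraries and below it in all LNCaP NT3 libraries. The fall in LNCaP NT3 did not itself pass the threshold without a replicate block. EGLN3 differed by -0.70 (SE 0.144, adjusted p 0.0015), with R1881 below DMSO in every NT3 library of both cell lines. HK2 differed by 0.72 (SE 0.121, adjusted p 0.00011), with R1881 above DMSO in all 42D NT3 libraries and overlapping groups in LNCaP NT3. The mitochondrial share was 3.76% to 4.39% with R1881, against 2.94% to 3.32% with DMSO, in 42D NT3. In LNCaP NT3 it was 5.18% to 6.01% with R1881, against 5.70% to 6.66% with DMSO. Its part in the 3 differences was not tested.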

How the results depend on the processing

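Of 114 member calls, 71 held under every alternative and 94 under every alternative that kept all libraries; none of 1281 alternative values reversed a call, and 163 ended one, 132 of them with a library left out. With the replicate number as a block, members called were 14 for the R1881 response in LNCaP NT3 (8 without it), 7 in C2 (2), and, against NT3, 14 in F2 with R1881 (9) and with DMSO (8), 2 in LNCaP sgT33-5 with R1881 (1) and with DMSO (0: EGLN3 0.32 and MXI1 0.20), 3 in 42D sgT33-5 with R1881 (0) and 1 with DMSO (0: EGLN3 -0.17). The difference in response gained VEGFA with the block, 1 call each in C2 (-0.58) and 42D sgT33-5 (-0.36), where there was 0. The block changed no other count by over 1.5 times. Fitting only the libraries compared gave 5 for the response in LNCaP NT3, 4 in C2, and against NT3 with R1881 3 in F2 and 0 in LNCaP sgT33-5. No filter on low counts gave 4 for the response in C2, 2 in LNCaP sgT33-5 and 2 in 42D sgT33-5 against NT3 with R1881, and 1 for the difference in response in 42D sgT33-5. DESeq2 gave 1 for 42D sgT33-5 against NT3 with R1881. Without the 2 libraries of low mitochondrial share, LNCaP sgT33-5 against NT3 with R1881 had 0. The cause of these shifts was not tested.

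With each library left out in turn, the R1881 response had 9 to 12 calls in 42D sgT33-5, 10 to 13 in 42D NT3, 2 to 4 in F2, 2 to 4 in C2, 7 to 9 in LNCaP sgT33-5 and 4 to 8 in LNCaP NT3, where 4 came without DMSO replicate 1 or 2 or R1881 replicate 3. Against NT3, counts were 3 to 8 in F2 with R1881 and 3 to 9 with DMSO, 5 to 9 in C2 with R1881 and 4 to 6 with DMSO, and 0 to 1 in either sgT33-5 line with R1881. 42D against LNCaP had 27 to 30, and the difference in response 3. Low counts limit SLC2A3, PDK4, CA9, ANKRD37 and SLC16A3, and RNA does not show HIF protein.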
